A study of Homo sapiens with 2 samples.

Results

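The mitochondrial protein import machinery is the set of translocases, chaperones and peptidases that carries proteins made in the cytosol into mitochondria. It was followed here as 36 genes, chosen by symbol with earlier results of these data known. The list covers the TOM, TIM, PAM and SAM complexes, the processing peptidases, the disulfide relay and the OXA1L insertase. All 36 were found, each as 1 row, among 50229 gene symbols, and all 36 were among the 11645 symbols with an FPKM (fragments per kilobase of transcript, scaled to library size) of at least 1 in at least 1 library. Poly(A) RNA was sequenced from ARP1, a cell line from multiple myeloma, which is a cancer of plasma cells. The study holds 1 library labelled as a VCP knockdown, called siVCP here, and 1 labelled as its control, called siNC. Both carry the same line and differ in the labels only by this treatment. No source used here gives the dose, the time after treatment or whether the cells were separate cultures.

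Each label has a single library, so differences are between these 2 libraries, with no replicate error, test or p-value. Where 2 FPKM values follow each other, that of the siVCP-labelled library comes first, and brackets hold 95% intervals for counting error alone. The libraries' estimated counts came to 68872657 (labelled siVCP) and 72566092 (labelled siNC), and counts per import gene ran from 754 to 18779. VCP, the gene named as the target, stood at FPKM 65.9 and 47.7, a ratio of 1.38 [1.33 to 1.43]. Its transcript was thus not lower where the label says knockdown, and every direction below refers to the labels. The 7 plasma cell and myeloma markers were all present, with a summed FPKM of 1472 and 1688. SDC1 (257 and 223), XBP1 (434 and 437), IRF4 (186 and 178) and TNFRSF17 (48.5 and 46.8) had ratios from 0.99 to 1.15, whereas JCHAIN (485 and 712), PRDM1 (46.6 and 69.8) and CD38 (15.3 and 21.6) were lower under the siVCP label, with ratios of 0.68, 0.67 and 0.71. What part these differences have in those of the import genes was not tested. No marker of T cells, myeloid, stromal, epithelial, erythroid, adipocyte or B cells exceeded an FPKM of 4.94. A protocol sentence in the labels mentions adipose material, but ADIPOQ, PLIN1 and FABP4 had 0 counts in both libraries.

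Nearly all mitochondrial proteins are encoded in the nucleus and cross the outer membrane through the TOM channel. From there they take separate routes. Proteins with a cleavable presequence pass the TIM23 channel and are pulled into the matrix by a motor built on the chaperone mortalin. Metabolite carriers are escorted by small TIM chaperones to the TIM22 channel, barrel proteins are inserted in the outer membrane by SAM, and cysteine-rich proteins are trapped in the intermembrane space by a disulfide relay. VCP, also called p97, is an ATPase that pulls ubiquitin-tagged proteins out of complexes and membranes for degradation, the mitochondrial outer membrane among them.

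Most import genes had a higher FPKM in the library labelled siVCP. The log2 ratio, log2((FPKM labelled siVCP + 1)/(FPKM labelled siNC + 1)), was above 0 for 26 of the 36 genes (72.2%), against 47.2% of all 11645 genes. Its median was 0.29 over the import genes and -0.02 over all genes. Because the genes were chosen with earlier results of these data known, these shares only describe the list. More abundant genes stood higher in general. In the fourth and top quintiles of mean FPKM, with 13 and 15 import genes, 56.6% and 62.6% of all genes were above 0. With an FPKM minimum of 5, the median was 0.29 over the import genes and 0.05 over all genes. The shift of the import genes was broad and small. A ratio of at least 5 to 4 in favour of the siVCP label on this scale was found for 17 import genes (47.2%) against 13.9% of all genes, and the reverse for 1 import gene (2.78%) against 18.3% of all genes. At 1.5-fold, the size used below to call a gene different, 3 were higher (8.33%, against 4.53% of all genes) and 1 was lower (2.78%, against 5.87%). None reached 2-fold on this scale in either direction, where 1.05% of all genes were higher and 1.31% lower. By role, the median log2 ratio was 0.33 over 9 TOM genes, 0.44 over 6 small TIM genes, 0.41 over 2 TIM22 genes and 0.45 over 5 TIM23 genes. It was 0.21 over 4 motor genes, 0.14 over 3 SAM genes, -0.16 over 3 peptidases, 0.44 over 2 genes of the disulfide relay and -0.11 over OXA1L and TIMMDC1. The medians of the TOM, small TIM, TIM22, TIM23 and relay genes were thus the higher ones, but each rests on few genes. The 2 relay genes were unlike, with CHCHD4 at 0.71 and GFER at 0.17. Of the 9 TOM genes, 3 were below 0, among them TOMM40L at -0.99, the lowest of the 36. These 9 also include TOMM34, which is not part of the membrane complex. The counting interval of the plain FPKM ratio lay above 1 for 25 import genes, below 1 for 5 and across 1 for 6. That is 69.4% above and 13.9% below, against 28.6% and 32.2% of all 11645 genes, and against 33.4% and 32.7% of the 7765 genes whose counts lay within the range of the import genes. In bulk RNA a change in the number of cells of a kind and a change in RNA per cell cannot be told apart.

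**Figure D1:**
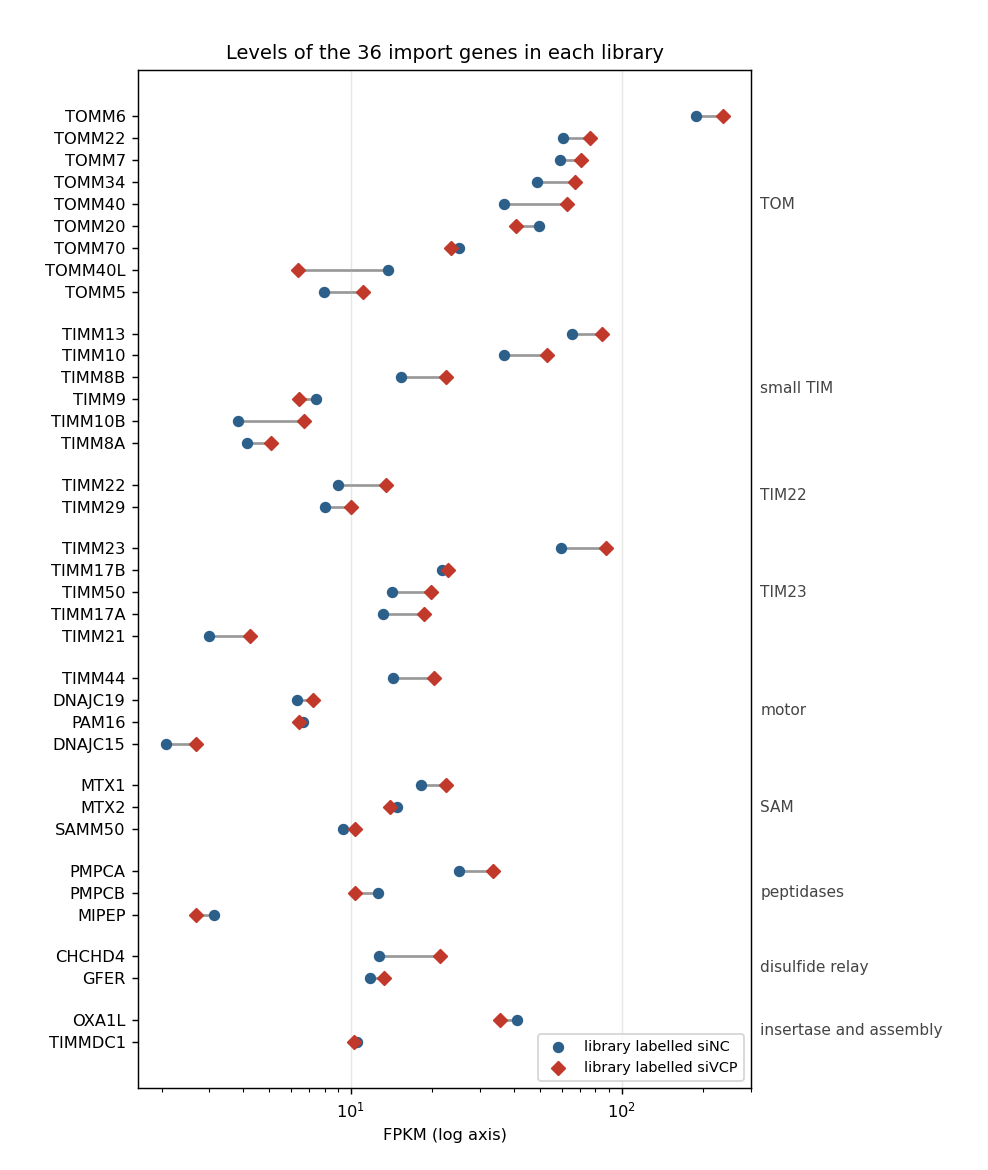
FPKM of each of the 36 import genes (log axis) in the library labelled siNC (circles) and the library labelled siVCP (diamonds), grouped by role and ordered by level within a role. TOMM6 stands highest, at 188 and 237, DNAJC15 lowest, at 2.08 and 2.68, and the longest line belongs to TOMM40L.

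The genes past 1.5-fold were TOMM40, CHCHD4 and TIMM10B, all higher in the library labelled siVCP, and TOMM40L, which was lower. Their promoters are printed here because these genes carry the largest differences, and because the first and last encode forms of the same channel. Each runs from 250 bases before to 50 bases after the RefSeq start, on GRCh38.p14, written on the gene's own strand. They lie at chr19:44891004-44891303 (TOMM40, plus strand), chr3:14124821-14125120 (CHCHD4, minus strand), chr11:6481251-6481550 (TIMM10B, plus strand) and chr1:161225810-161226109 (TOMM40L, plus strand). Capitals mark every match on either strand to the NRF1 core GCGCANGCG, the ETS word CCGGAAG, the YY1 word ATGGCGGC, the Sp1 box GGGCGG, the E-box CACGTG and the CRE core TGACGT, and touching matches run together.
TOMM40: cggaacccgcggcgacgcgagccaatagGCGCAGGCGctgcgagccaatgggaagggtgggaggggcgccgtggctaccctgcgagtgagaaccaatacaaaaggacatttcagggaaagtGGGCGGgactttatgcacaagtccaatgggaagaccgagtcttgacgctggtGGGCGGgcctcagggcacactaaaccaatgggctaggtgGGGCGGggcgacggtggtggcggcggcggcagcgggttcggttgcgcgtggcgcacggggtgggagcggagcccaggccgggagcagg
CHCHD4: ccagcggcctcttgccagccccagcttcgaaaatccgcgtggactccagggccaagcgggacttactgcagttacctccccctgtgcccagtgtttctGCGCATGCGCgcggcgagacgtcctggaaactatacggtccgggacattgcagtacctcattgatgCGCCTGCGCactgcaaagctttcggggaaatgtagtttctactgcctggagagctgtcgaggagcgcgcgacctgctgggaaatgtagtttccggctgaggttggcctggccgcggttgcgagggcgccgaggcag
TIMM10B: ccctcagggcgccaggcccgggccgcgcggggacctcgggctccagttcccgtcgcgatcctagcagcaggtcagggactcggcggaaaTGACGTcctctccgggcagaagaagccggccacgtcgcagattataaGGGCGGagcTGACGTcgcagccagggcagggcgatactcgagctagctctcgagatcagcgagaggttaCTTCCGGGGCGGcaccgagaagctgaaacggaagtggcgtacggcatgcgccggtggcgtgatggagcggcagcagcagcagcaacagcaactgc
TOMM40L: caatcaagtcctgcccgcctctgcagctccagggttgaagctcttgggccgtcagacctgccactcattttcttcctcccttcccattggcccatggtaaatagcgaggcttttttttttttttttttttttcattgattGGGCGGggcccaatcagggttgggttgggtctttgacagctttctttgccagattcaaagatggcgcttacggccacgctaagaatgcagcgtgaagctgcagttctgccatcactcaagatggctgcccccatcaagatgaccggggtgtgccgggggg

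These are words for factors known from other work to bind promoters of genes for mitochondrial proteins (NRF1, ETS factors such as GABPA, YY1) or promoters in general. The TOMM40 window held 1 NRF1 core and 3 Sp1 boxes, whereas the TOMM40L window held 1 Sp1 box and none of the other words. The CHCHD4 window held NRF1 cores at 2 separate places, of which the first reads the same on both strands and counts once per strand. The TIMM10B window held 2 CRE cores, 2 Sp1 boxes and 1 ETS word that overlaps a box. Of the 36 genes, 34 had a promoter in the RefSeq table, with 37 promoters among them. The shares below are per gene for the import genes but per promoter for the genes they are set against, so they are not strictly alike. The ETS word stood in 16 of the 34 genes (47.1%), against 10.3% of all 35116 promoters and 18.8% of the promoters of genes measured here. The NRF1 core stood in 11 (32.4%, against 7.52% and 13.7%) and the YY1 word in 6 (17.6%, against 3% and 6.15%). The Sp1 box, in 67.6%, had nearly the share among promoters of measured genes (68.4%, and 45% of all promoters). The E-box had 11.8% (against 9.84% and 7.26%), and the CRE core stood in the TIMM10B window alone, 2.94% (against 11.1% and 7.98%). Import genes with and without the ETS word had the same median log2 ratio, 0.27, and those with and without the NRF1 core had 0.26 and 0.28. The YY1 word went with a median of 0.43 against 0.26, over 6 and 28 genes, the Sp1 box with 0.28 against 0.26, and the E-box with 0.04 against 0.29 over 4 genes and the rest. A match is a string of letters and does not show that a factor binds.

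The TOM complex is the entry gate. Its channel gene was higher under the siVCP label, as were the small subunits to a lesser degree, whereas 2 receptors were lower. TOMM40, the barrel that forms the pore (ENSG00000130204; GRCh38 chromosome 19, 44890569 to 44903689, plus strand), had FPKM 63.0 and 36.8, which is 1.71-fold higher [1.63 to 1.79]. Its log2 ratio of 0.76 was the highest of the 36. TOMM40L, a paralogue of the same barrel (ENSG00000158882; chromosome 1, 161225939 to 161230744, plus strand), had 6.37 and 13.7, which is 2.14-fold lower [1.91 to 2.40] and the lowest log2 ratio of the 36, -0.99. The pair thus stood on opposite sides of the other 34 genes.

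The other TOM genes lay between them. TOMM5, TOMM6 and TOMM7 encode small subunits that steady the complex, and their FPKM ratios were 1.40 [1.26 to 1.56], 1.26 [1.20 to 1.33] and 1.20 [1.13 to 1.27]. TOMM6 was the most abundant transcript of all 36 genes, at FPKM 237 and 188. TOMM22, the central receptor that holds channels together, had 76.5 and 60.7, a ratio of 1.26 [1.20 to 1.32]. The other receptor genes of the complex, TOMM20 and TOMM70, stood on the other side of 1. TOMM20, which binds presequences, had 40.8 and 49.4, 1.21-fold lower [1.15 to 1.27], and TOMM70, which receives carriers and chaperone-bound clients, had 23.5 and 25.2, 1.07-fold lower [1.01 to 1.13]. TOMM34, a cytosolic cochaperone that binds HSP70 and HSP90 and is not part of the membrane complex, had 67.2 and 48.9, a ratio of 1.37 [1.30 to 1.45].

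Small TIM chaperones carry hydrophobic proteins across the intermembrane space, and 5 of 6 were on the higher side. TIMM10B, a member that docks on the TIM22 channel (ENSG00000132286; chromosome 11, 6481501 to 6484681, plus strand), had FPKM 6.70 and 3.84, which is 1.74-fold higher [1.49 to 2.05]. It was among the less abundant members, and with a pseudocount of 5 its log2 ratio was 0.40 in place of 0.67, below the 1.5-fold line. TIMM10 had 53.0 and 36.9, a ratio of 1.44 [1.29 to 1.59]. TIMM9, which forms a mixed ring with TIMM10, had 6.45 and 7.43, a ratio of 0.87 [0.71 to 1.06] whose interval crosses 1. The other ring pairs TIMM13 with TIMM8A or TIMM8B. TIMM13 had 84.8 and 65.5, TIMM8B 22.4 and 15.3, and TIMM8A, the gene altered in a human deafness-dystonia syndrome, 5.09 and 4.14. Their ratios of 1.30, 1.46 and 1.23 all had intervals above 1.

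Both inner membrane channels were on the higher side. For carriers, TIMM22, the channel itself, had FPKM 13.5 and 8.97, a ratio of 1.5 [1.36 to 1.67] that is just under the line on the log2 ratio scale (0.54, against a line at 0.58). TIMM29, a subunit of the same complex in animals, had 10.0 and 8.03, a log2 ratio of 0.29. For presequence proteins, TIMM23, the channel partner, had 87.3 and 59.9, a ratio of 1.46 [1.37 to 1.56]. TIMM50, the receptor on its outer side, had 19.8 and 14.2, and TIMM21, which links the channel to TOM, had 4.25 and 2.99. TIMM17A and TIMM17B encode alternative forms of the subunit that sits beside TIMM23. TIMM17A had 18.6 and 13.2, a ratio of 1.41 [1.30 to 1.53], whereas TIMM17B had 22.8 and 21.7, a ratio of 1.05 [0.97 to 1.14]. All 5 genes of this channel had a log2 ratio above 0, from 0.07 to 0.54.

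**Figure D2:**
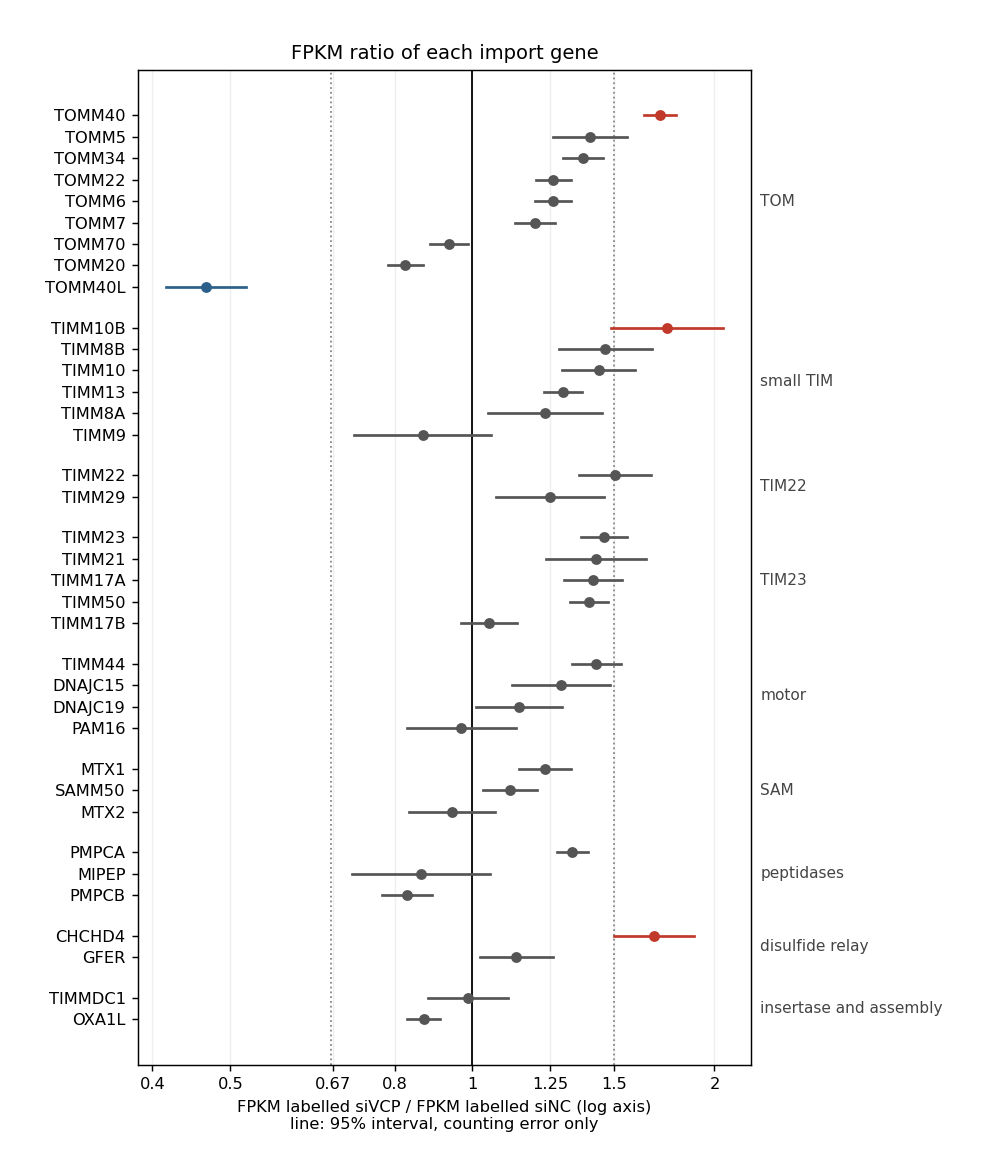
Plain FPKM ratio (labelled siVCP over labelled siNC, log axis) of each import gene, grouped by role, with its 95% interval for counting error. The solid line marks 1 and the dotted lines 1.5-fold either way on the plain scale. TOMM40, TIMM10B and CHCHD4 (red) and TOMM40L (blue) passed 1.5-fold on the log2 ratio scale. All import genes shown for the TIM22 and TIM23 channels lie to the right of 1, though the interval of TIMM17B crosses it.

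In the motor that pulls chains into the matrix, 3 of 4 genes had an interval above 1. TIMM44, which tethers mortalin to the channel, had FPKM 20.3 and 14.3, a ratio of 1.43 [1.33 to 1.53]. DNAJC19 and DNAJC15 encode J-domain proteins that stimulate mortalin, and their ratios were 1.14 [1.01 to 1.29] and 1.29 [1.12 to 1.48]. PAM16, the J-like partner that restrains that step, had 6.43 and 6.64, a ratio of 0.97 [0.83 to 1.13].

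The PAM16 value is uncertain, because the read-through row CORO7-PAM16 (chromosome 16, 4340251 to 4420494, minus strand) overlaps part of PAM16 (4331549 to 4351321, minus strand). That row had FPKM 11.3 and 1.75, 6.46-fold higher [5.41 to 7.75], and it held 3563 and 583 counts against 1243 and 1353 for PAM16 itself. Summed, PAM16 and the read-through row had 17.7 and 8.39, a log2 ratio of 0.997 in place of -0.04. The upstream gene CORO7, a coronin of the Golgi, had 16.1 and 20.1, and CORO7 with the read-through row 27.4 and 21.8. How reads were divided among these rows was not tested, and no direction is given for PAM16.

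Further rows may share reads with an import gene. TIMM23 has a near-identical neighbour copy, TIMM23B, with FPKM 3.42 and 1.09, 3.13-fold higher [2.39 to 4.15], and a read-through row of that copy, TIMM23B-AGAP6, with 0.629 and 1.20. Adding both to TIMM23 left its ratio at 1.47. MTX1 has a pseudogene copy, MTX1P1, with 25.7 and 20.8, as abundant as MTX1 itself, and their sum had a ratio of 1.23, the same as MTX1 alone. TOMM6 overlaps an unnamed row on its own strand that held 10.9% and 12.4% of its counts. Without these 4 genes (PAM16, TIMM23, MTX1 and TOMM6) the median log2 ratio of the other 32 was 0.27, with the same 3 higher and 1 lower. No source used here gives the strandedness of the libraries, and 9 import genes overlap a row on the other strand with at least 10% of their counts. For TIMM9 that row, KIAA0586, held 80.5% and 132% of its counts, for TIMM8B the row NKAPD1 held 48.0% and 77.8%, and TIMM22, TIMM17B and PAM16 have partners (ABR, PQBP1 and GLIS2) with more counts than they have. Without both kinds of overlap, 26 genes were left, of which 19 had a log2 ratio above 0, with a median of 0.27.

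**Figure D3:**
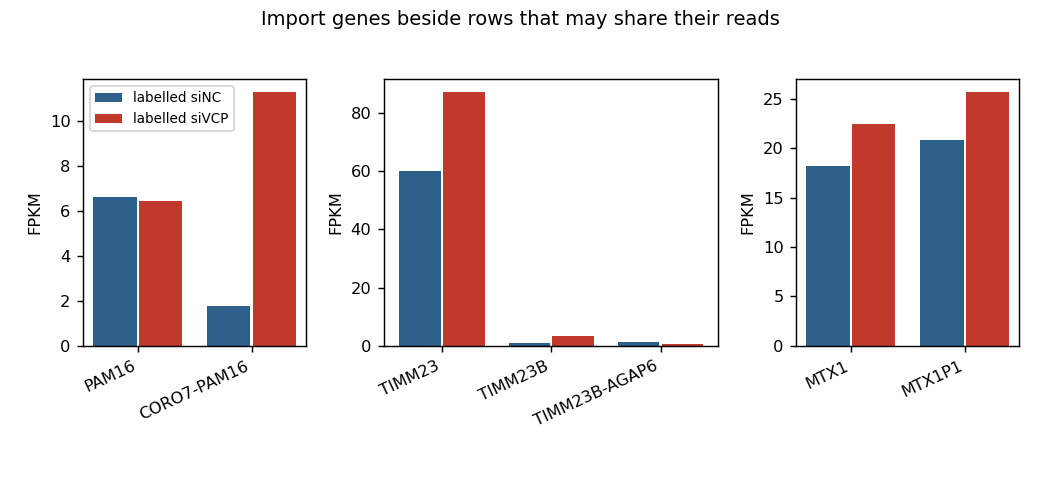
FPKM (bars from 0) in the library labelled siNC (blue) and the library labelled siVCP (red) for PAM16, TIMM23 and MTX1 beside rows that may share their reads. The read-through row CORO7-PAM16 stands at 1.75 and 11.3 while PAM16 stands at 6.64 and 6.43, TIMM23B is small beside TIMM23, and MTX1P1 is as high as MTX1.

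Genes that act after or beside the main channels varied in direction. In the SAM complex, which inserts barrel proteins, SAMM50 had FPKM 10.4 and 9.36, a ratio of 1.11 [1.03 to 1.20], MTX1 22.4 and 18.2, a ratio of 1.23 [1.14 to 1.33], and MTX2 14 and 14.8, a ratio of 0.94 [0.83 to 1.07]. All 3 lay between 0.94 and 1.23. Presequences are cut off by a peptidase of 2 subunits. PMPCA, which recognises the presequence, had 33.4 and 25.1, a ratio of 1.33 [1.27 to 1.39], and PMPCB, which cuts, had 10.4 and 12.6, 1.21-fold lower [1.12 to 1.30]. MIPEP, which trims some proteins further, had 2.69 and 3.12, with an interval across 1.

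The disulfide relay oxidises small cysteine-rich proteins so that they stay in the intermembrane space. CHCHD4, its oxidoreductase (ENSG00000163528; chromosome 3, 14112077 to 14124870, minus strand), had FPKM 21.3 and 12.7, 1.68-fold higher [1.5 to 1.89]. With a pseudocount of 5 its log2 ratio was 0.57 in place of 0.71, under the 1.5-fold line. GFER, the sulfhydryl oxidase that reoxidises CHCHD4, had 13.3 and 11.8, a ratio of 1.13 [1.02 to 1.26]. OXA1L, which inserts proteins into the inner membrane from the matrix, had 35.7 and 41.1, 1.15-fold lower [1.10 to 1.20]. TIMMDC1, which carries a TIM-like name but is known as an assembly factor of respiratory complex I, had 10.3 and 10.5, a ratio of 0.99 [0.88 to 1.11].

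Ratios between genes that work together do not depend on how the libraries were scaled, and several differed between the libraries by more than counting error. TOMM40 was 9.89 times as abundant as TOMM40L under the siVCP label and 2.70 times under siNC, a difference of 3.67-fold [3.24 to 4.14]. PMPCA to PMPCB was 3.21 and 2.0, a difference of 1.60-fold [1.47 to 1.74]. TIMM10 to TIMM9, which share a ring, was 8.21 and 4.96, a difference of 1.66-fold [1.33 to 2.06]. Some genes of these pairs, TIMM9 and PMPCB among them, overlap a row on the other strand with at least 10% of their counts. How that bears on their ratios was not tested. Receptor balance also differed, with TOMM22 to TOMM20 at 1.88 and 1.23, a difference of 1.53-fold [1.42 to 1.64], and CHCHD4 to GFER was 1.60 and 1.08, a difference of 1.48-fold [1.27 to 1.73]. By contrast, TIMM23 to TIMM50 (4.41 and 4.22) differed by 1.04-fold [0.96 to 1.14], and TIMM13 to TIMM8A (16.7 and 15.8) by 1.05-fold, with intervals that hold 1. Of the 14 pairs compared, 9 had an interval that left out 1, and 5 did not. No such share was computed for pairs of other genes. Among single genes with counts in the range of the import genes, 33.4% had intervals above 1 and 32.7% below 1. The count of 9 is therefore not read as a trait of import partners. The pairs were chosen for known partnership or paralogy, with the values of these genes already seen, and without replicates the intervals say nothing of how the ratios vary between cultures.

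**Figure D4:**
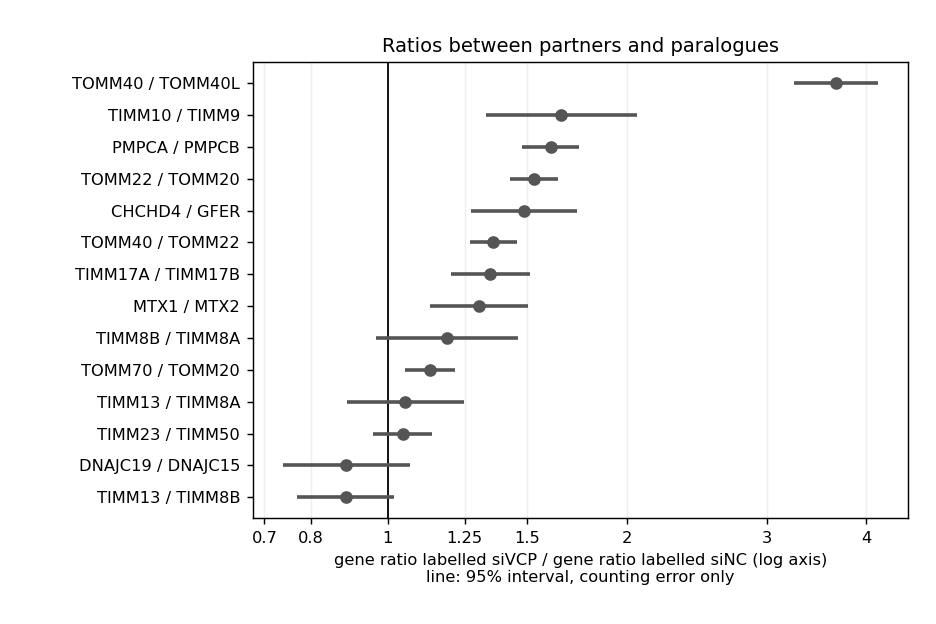
Difference in the FPKM ratio of 14 pairs of import genes (ratio in the library labelled siVCP over ratio in the library labelled siNC, log axis), with 95% intervals for counting error. TOMM40 to TOMM40L stands apart at 3.67, the next are near 1.5 to 1.7, and the lines of 5 pairs at the bottom and middle cross 1.

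Import genes also share features that the choice of members did not use. They were more abundant than most genes, with a median FPKM of 19.2 and 13.9 against 4.96 and 5.13 over all measured genes, and 31 of 36 reached an FPKM of 5 in both libraries. Their transcripts were shorter, with a median length of 2051 bases against 3234, at a GC content of 48.4% against 49.7%. They were spread over 17 chromosomes, with 5 on chromosome 19 and 4 each on chromosomes 1 and 3. Log2 ratios in these libraries followed transcript length and level over all genes. The median over all genes went, by quintiles of length, from 0.08 among the shortest to -0.16 among the longest, and by quintiles of mean FPKM it went from -0.13 among the lowest to 0.08 among the highest. Import genes had medians of 0.29, 0.35 and 0.32 in the 3 quintiles of shorter transcripts (16, 10 and 8 genes), where all genes had 0.08, 0.07 and -0.00. In the top quintile of mean FPKM the median was 0.33 over 15 import genes and 0.08 over all genes, and in the next quintile 0.29 over 13 and 0.05. By quintiles of GC content, all genes went from -0.19 to 0.07 with the highest median, 0.09, in the fourth, and import genes from 0.17 to 0.29 with the highest there too, 0.42. What part of the difference goes with length, level or GC content was not tested.

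**Figure D5:**
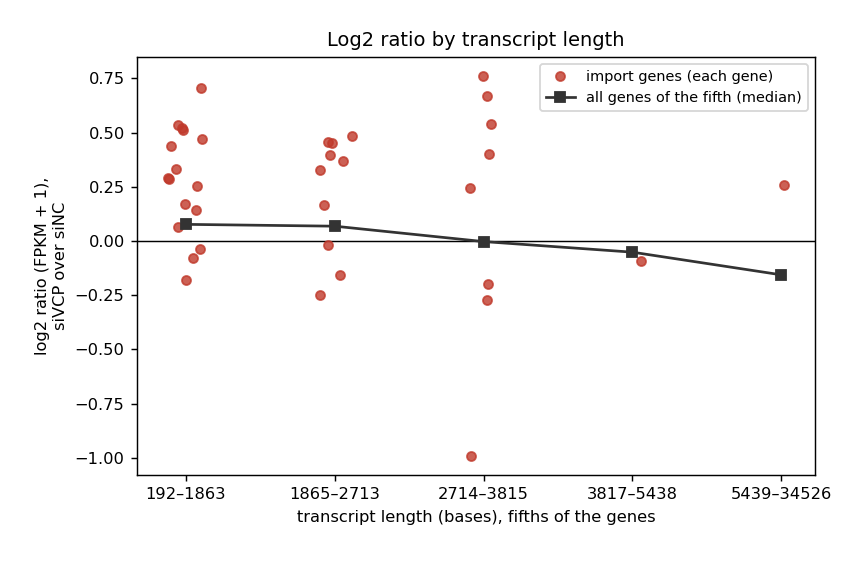
Log2 ratio of FPKM + 1 (labelled siVCP over labelled siNC) of each import gene (red points, spread sideways for view) by quintiles of transcript length over 9674 genes, with the median of all genes in each quintile (black squares). The black line goes from 0.08 to -0.16, and most red points in the first 3 quintiles lie above it.

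Other genes of the pathway, taken as 7 short lists, were read beside the members. Of 49 listed genes, 45 were measured, with a median log2 ratio of 0.16. Above 0 stood 30 of the 45, where 47.2% of all genes did. Past 1.5-fold were 3 of the 45 on the higher side (GRPEL2, TIMM23B and HSPA8), where 4.53% of all genes were. On the lower side it was 1 of the 45, MTX3, where 5.87% of all genes were. Counts this small are not read as a trait of these lists. The list of the motor's partners had a median of 0.37 over 6 genes and 2 past 1.5-fold, GRPEL2 and TIMM23B. TIMM23B is the copy of the channel gene TIMM23 described above and no motor gene. Without it the median was 0.35 over 5 genes, with GRPEL2 alone past 1.5-fold. That median is the value of ROMO1 (FPKM 39.9 and 31.1). The log2 ratios of the others were 0.81 for GRPEL2, 0.39 for HSPA9, 0.19 for GRPEL1 and -0.03 for DNLZ. With a pseudocount of 5, or with an FPKM minimum of 5, none of the list passed. GRPEL2, a nucleotide exchange factor of mortalin, had FPKM 4.92 and 2.38, 2.07-fold higher [1.76 to 2.44], the related GRPEL1 had a ratio of 1.16 [1.04 to 1.29], and HSPA9, mortalin itself, had 61.1 and 46.3, a ratio of 1.32 [1.28 to 1.36]. DNLZ, a mortalin escort protein, was the lowest of that list, at 1.38 and 1.43. Among genes of delivery in the cytosol all 6 were above 0, with a median of 0.28, from DNAJA2 and HSP90AA1 at 0.05 and 0.09 to DNAJA1 at 0.54 and HSPA8, the constitutive HSP70, at 0.77.

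Genes for the clients and surroundings of import were nearer to 0. Substrates of the disulfide relay had a median log2 ratio of 0.19 over 12 measured genes, none of them 1.5-fold apart on this scale. COA4, at FPKM 39.2 and 26.0, was just under that line at 0.57, with a plain ratio of 1.51 [1.4 to 1.62], and CHCHD1 had 0.33. The lowest were CHCHD5 at -0.12 and CHCHD7 at -0.05. Carriers and insertion factors of the inner membrane had a median of -0.08 over 7 genes, with 5 below 0. Among them SLC25A5, an ADP/ATP carrier and a client of the TIM22 route, had FPKM 308 and 375, a ratio of 0.82 [0.80 to 0.84], and AGK, a lipid kinase that is also a TIM22 subunit, -0.13. On the other side were SLC25A11 (0.23) and SLC25A4 (0.20). MICOS genes, which shape the cristae, had a median of 0.01 over 6, from CHCHD6 at -0.06 and APOO at -0.03 to MICOS10 at 0.18 and CHCHD3 at 0.38. Later peptidases had a median of -0.02 over 3, with XPNPEP3 at -0.06, IMMP1L at -0.02 and PITRM1 at 0.04. In the outer membrane, where the median was 0.07 over 5 genes, the metaxin gene MTX3 had FPKM 0.794 and 2.14, a log2 ratio of -0.81, and ATAD1, which extracts misplaced tail-anchored proteins, -0.24. MTCH2, an insertase, had 0.28 and DNAJC11 0.58. TOMM20L, a paralogue of TOMM20, had 0 counts in both libraries.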

How the data were processed

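Paired-end libraries were made from poly(A) RNA of ARP1 cells, per the labels' protocols. For each gene and library, the deposited table holds an estimated count and an FPKM value. HISAT2 2.0 and StringTie 1.3.0 are named, per the submitters' processing notes. The genome build is not given in the sources used here. However, 90.6% of the identifiers found in GENCODE 29 had the same start or end there, so coordinates are given as GRCh38.

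FPKM values normalized by the authors were used as deposited, except that the floor value of rows with a count of 0 was set to 0. The estimated counts deposited by the authors pile up at multiples of 4 (1205 rows at 4 in the library labelled siVCP, 417 at 3 and 244 at 5), from which it was inferred that 1 fragment adds about 4 counts. For intervals, counts were divided by 4, with the exact conditional binomial method for a gene and the log-normal method for ratios of 2 genes. Fragments without molecular identifiers are not independent molecules. Rows sharing a symbol were summed, and genes reaching an FPKM of 1 in either library were kept. The pseudocount was 1, so log2 ratios understate differences of low genes. Groups were taken from the labels' treatment field. No count model or test was run.

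Every member is given, with fuller values for those past 1.5-fold, the highest and lowest of each role, paralogues, the most and least abundant, and genes with overlapping rows or copies. Up to 2 highest and 2 lowest genes of each further list are named; HSPA9, GRPEL1 and TOMM20L were added after their values were seen. The members and lists were chosen with earlier results of these data known. The motifs and pairs were chosen after seeing the data. Transcript length and GC content are those of the longest basic protein-coding transcript of GENCODE 29. Promoters are from RefSeq. The steps were tested on simulated data. Scripts ran under Python 3.11.15 with scipy 1.17.1, pandas 2.3.3, matplotlib 3.10.9 and numpy 2.4.6.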

Additional observations from a re-analysis of the deposited data

How the results depend on the processing

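No paired analysis was possible because siVCP and siNC have 1 library each, so none could be dropped either. Plain FPKM ratios and the removal of members that share reads, or of TIMM23B from its list, were chosen after seeing the data. Under the 11 alternatives to which it applies, the median log2 ratio of the import genes stayed between 0.23 (pseudocount of 5) and 0.38 (CPM). CPM here means estimated counts scaled by the median ratio of counts between the libraries, not by their library totals. With it the median log2 ratio over all genes was 0.0004. Of 361 values of single genes recomputed, 4 changed sign, 3 of TIMMDC1 and 1 of PAM16, both near 0. Import genes at least 1.5-fold higher numbered 3, but 1 with a pseudocount of 5, where TOMM40 remained, 6 with CPM, 0 at 2-fold and 17 at a ratio of 5 to 4. They numbered 4 with plain ratios. Without rows that overlap on the same strand they numbered 2, since TIMM10B overlaps a row of 2 and 2 counts. The 1 lower gene, TOMM40L, became 0 at 2-fold and 0 without rows that overlap on the same strand, since it overlaps a microRNA row of 3 and 4 counts. VCP moved to 0.53 with CPM. Other import genes numbered 3 higher and 1 lower. The higher count was 5 with a pseudocount of 0.1, after rescaling to a median of 0 or to the same FPKM sum, and with plain ratios, 6 with CPM, and 1 with a pseudocount of 5, with an FPKM minimum of 5, and without overlaps. The lower count was 0 with a pseudocount of 5 and with the FPKM minimum of 5. Over all genes the counts were 528 higher and 684 lower. A pseudocount of 5 gave 163 and 141, an FPKM minimum of 5 gave 328 and 288 (6245 genes), CPM gave 897 and 1349 (14195 genes), and the counts were 122 and 153 at 2-fold and 1621 and 2135 at a ratio of 5 to 4. The lower count was 1351 with a pseudocount of 0.1 and 1414 with plain ratios, and the higher count 344 without overlaps (8916 genes). The cause was not tested. Counting error is widest for TIMM9 and MIPEP, with 755 and 754 counts in the library labelled siVCP.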

Other observations

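The gene table carries Gene Ontology terms, and 11 terms on import into mitochondria were searched after seeing the data. Of the 36 members, 30 carried at least 1 of them. Outside the members and the further lists, 8 symbols carried one, of which 6 were measured, with a median log2 ratio of -0.01. MAIP1, a matrix protein known to assist an inner membrane protease, had FPKM 8.40 and 6.47 (siVCP label first), a ratio of 1.30 [1.09 to 1.55]. AIFM1, which anchors CHCHD4 at the inner membrane, had 8.35 and 8.22, a ratio of 1.02 [0.96 to 1.08], beside the ratio of 1.68 for CHCHD4. HSPA4, a cytosolic HSP110 chaperone, had 21.0 and 26.9, a ratio of 0.78 [0.74 to 0.83], on the other side of 1 from HSPA8. UQCRC2, a respiratory complex III subunit related to the processing peptidases PMPCA and PMPCB, had 34.0 and 36.2, a ratio of 0.94 [0.90 to 0.99].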
